A study of Mus musculus with 12 samples.

Results

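The STAT transcription factors and the SOCS proteins that hold them in check were followed through the activation of mouse B cells. The set comprised 9 genes, named by symbol, of the 27179 genes in the count table: Stat2, Stat3, Stat5a, Stat5b and Stat6 on the STAT side, and Socs1, Socs2, Socs3 and Cish on the SOCS side. RNA-Seq was carried out at 6 stages, each with 2 biological replicates, 12 libraries in all, in a study of how gene expression and chromosome structure change as a B cell becomes an antibody-secreting cell. Cells came from the spleens of male C57BL/6 mice (Pep3b background) aged 6 to 12 weeks, and the number of mice behind a library is not given in the sources used here. Naive B cells received no treatment and were sorted on surface markers, among them B220, IgM and high IgD, and without TCRβ. All other cells were negatively isolated B cells stimulated in culture with 25 μg/ml lipopolysaccharide (LPS), a bacterial membrane component that B cells sense through Toll-like receptor 4. Cells labelled with the division dye CTV were sorted as undivided at 3, 10 and 33 h, the last being just before the first division. Cells of day 4 came from cultures set up at a lower density. Expanded B cells kept CD22 and lacked CD138, while plasmablasts, the early antibody-secreting cells, had lost CD22 and gained CD138. No library of cells cultured without LPS was included, so that the effects of culture and of LPS cannot be told apart.

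STAT proteins wait in the cytoplasm until a cytokine binds its receptor. The Janus kinases attached to the receptor then phosphorylate them, and pairs of STATs enter the nucleus and bind DNA. In B cells, Stat6 is the factor of interleukin-4 signalling, Stat3 serves interleukin-6, interleukin-10 and interleukin-21, and Stat5a and Stat5b serve the interleukin-2 family. Stat2 joins Irf9 in the complex that answers type I interferon. Cish and the SOCS genes are themselves induced by STATs, and their proteins block the receptor or the kinase, or pass them to a ubiquitin ligase, which makes the circuit a negative feedback loop. RNA levels do not show whether a STAT is phosphorylated.

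STAT dimers bind a palindrome of TTC and GAA half-sites, most often with 3 bases between them. The RefSeq promoter windows (250 bases before to 50 after a start site, GRCm38.p6) were searched for TTCNNNGAA and for TTCNNNNGAA, which spaces the half-sites by 4 bases. Each is its own reverse complement, so that a single search covers both strands, and neither can match where the other does from the same TTC. Of the 9 genes, 8 had a window, with 10 windows in all, and the windows of 3 genes held a match. Those windows, the only ones with a match, are shown up to 30 bases after the start site. Capitals mark the matches.
Stat2: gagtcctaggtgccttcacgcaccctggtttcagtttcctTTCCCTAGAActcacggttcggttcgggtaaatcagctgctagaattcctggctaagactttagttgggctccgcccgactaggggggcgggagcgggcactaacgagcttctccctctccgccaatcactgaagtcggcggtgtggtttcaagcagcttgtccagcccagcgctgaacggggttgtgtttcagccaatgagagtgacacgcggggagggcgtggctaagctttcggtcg
Socs3: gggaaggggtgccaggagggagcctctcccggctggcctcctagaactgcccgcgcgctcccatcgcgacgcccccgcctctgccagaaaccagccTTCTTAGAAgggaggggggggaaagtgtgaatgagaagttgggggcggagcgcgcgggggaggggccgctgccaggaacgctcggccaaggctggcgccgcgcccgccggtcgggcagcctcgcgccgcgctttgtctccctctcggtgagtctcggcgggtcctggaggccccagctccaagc
Cish: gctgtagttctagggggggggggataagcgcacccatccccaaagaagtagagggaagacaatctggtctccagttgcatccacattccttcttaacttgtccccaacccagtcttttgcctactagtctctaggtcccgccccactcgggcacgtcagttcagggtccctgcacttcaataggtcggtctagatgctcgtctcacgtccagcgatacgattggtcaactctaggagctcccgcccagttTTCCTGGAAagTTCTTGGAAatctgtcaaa

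The Stat2 sequence (chr10:128270248-128270527, plus strand) carried TTCCCTAGAA 210 bases before its start site. The Socs3 sequence (chr11:117969337-117969616, minus strand) belongs to a start site inside the annotated gene and carried TTCTTAGAA 154 bases before it. The Cish sequence (chr9:107296409-107296688, plus strand) carried a pair of matches in a row, TTCCTGGAA from base 1 and TTCTTGGAA from base 12 of the transcript. Among all 32851 windows, TTCNNNGAA occurred in 8.30% and TTCNNNNGAA in 6.95%, and 0.457% (150 windows) held at least 2 copies of TTCNNNGAA, as that of Cish did. These matches describe the letters only, and no binding was measured.

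Stat3, Stat5a and Stat5b lie side by side within 158.9 kb of chromosome 11 (mm10), with Socs3 further along the same chromosome. Stat2, Stat6 and Socs2 are on chromosome 10, Socs1 is on chromosome 16 and Cish on chromosome 9. Some reads could be misplaced between genes. Stat5a and Stat5b are near-copies of each other, and 8.4% of the 81-base stretches of Stat5a transcripts (81 bases being the read length) also occurred in Stat5b. Socs2 shared 10.5% of its stretches with Gm9847. Opposite-strand exon overlaps were 72 bases between Stat3 and Stat5a, 40 bases between Stat6 and Nab2, and 479 and 261 bases of Cish with Gm17041 and Gm17040. Whether the counting used strand is not given in the sources used here, so reads in those bases are uncertain.

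Total counts ran from 23026619 to 60585587 per library, with a median of 37839944, and all 9 genes were among the 12750 that passed the filter on low counts. Levels are given as RPKM (read counts scaled to exon length and library size), which compares genes per unit of length. The B cell markers Cd79a, Cd79b and Ms4a1 were detected at every stage, with summed RPKM between 1737 and 5626. The plasmablast markers Sdc1, Prdm1, Xbp1 and Jchain summed to 10600 and 10383 RPKM in the plasmablast libraries and to at most 908 elsewhere. The summed RPKM of myeloid, erythroid and NK cell markers was higher in the naive libraries than at the later stages. The 7 myeloid markers, all with counts in naive cells, summed to 406 and 163 RPKM there and to between 0.205 and 9.74 at the other stages, where S100a8 had no counts in any library. The 4 erythroid markers measured summed to 379 and 290 RPKM in naive cells and to at most 3.2 later. The 4 NK cell markers (13.4 and 11.4 RPKM in naive cells, at most 3.06 later) and the 7 T cell markers (31.2 and 34.1, at most 29.1 later) moved less, and the 4 dendritic cell markers, led by Flt3, went from 1.56 and 1.37 RPKM in naive cells to 16.6 and 15.4 in expanded B cells. At 3 h, Cd14, S100a8, S100a9, Clec9a, Cd3d, Cd3e, Cd3g, Cd4, Ncr1 and Gzma were at 0 in both libraries. The part of these cells in the comparisons with naive cells was not tested. In bulk samples, fewer cells of a type and less RNA per cell cannot be told apart.

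Each transition was tested with edgeR's glmTreat, which asks whether a change exceeds 1.5-fold, and a gene was called at a Benjamini-Hochberg adjusted p under 0.05 over all genes tested. From naive cells to 3 h, 6 of the 9 genes rose (Stat3, Stat5a, Stat6, Socs2, Socs3 and Cish), where 21.0% of all genes did, and 1 fell (Stat2), where 24.3% of all genes did. The median log2 fold change of the 9 was 1.51, against -0.03 for all genes. From 3 to 10 h, 1 gene rose (Stat2, background 17.4%) and 4 fell (Stat3, Stat5a, Stat6 and Socs3, background 13.4%). From 10 to 33 h, 1 rose (Socs3, background 10.1%) and 2 fell (Stat5a and Cish, background 4.45%). From 33 h to expanded B cells, 1 rose (Socs2, background 6.94%) and 2 fell (Socs1 and Socs3, background 3.66%). From expanded B cells to plasmablasts, 2 rose (Socs2 and Cish, background 13.9%) and 2 fell (Stat5a and Stat6, background 12.2%). The medians of these later transitions were -0.37, -0.19, -0.31 and 0.06. Only Stat5b was called at no single transition, and the share of all genes called at least once was not computed. Consecutive transitions share the libraries of a stage, so a rise and the fall that follows it are not independent.

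**Figure D1:**
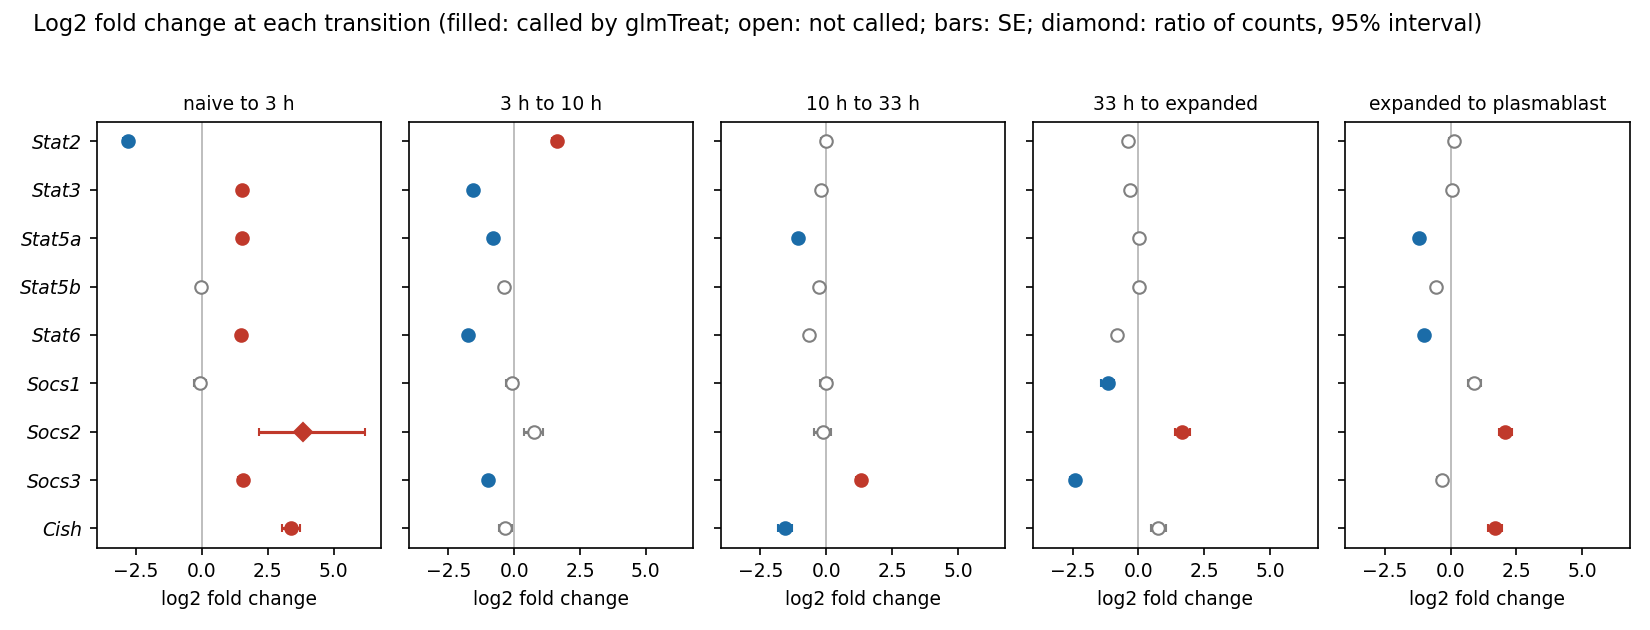
Log2 fold change (horizontal axis) of the 9 genes at each of the 5 transitions, with the standard error of the fit as bars. Filled points were called (red up, blue down) and open points were not. The diamond for Socs2 is a ratio of counts with its 95% interval, because naive cells had 3 counts. The 3 h panel holds 6 called rises (background 21.0% of all genes) and 1 fall (background 24.3%). Only SOCS genes were called at the step to expanded B cells, where 6.94% of all genes rose and 3.66% fell. Stat6 was not called there (-0.81, adjusted p = 0.063).

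Across the whole path from naive cells to plasmablasts, 2 of the 9 rose (Socs2 and Cish, background 26.6%) and 5 fell (Stat2, Stat5a, Stat5b, Stat6 and Socs3, background 23.4%), with a median of -0.90 against 0.02 for all genes. None of the 5 STATs rose over that path. The 5 STATs summed to 209 and 227 RPKM in naive cells, to 491 and 489 in 3 h cells, and to 77.5 and 77.7 in plasmablasts. The sum was thus highest in both 3 h libraries and lowest in both plasmablast libraries.

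Stat2, a factor of the type I interferon response, was the only 1 of the 5 STATs that fell at 3 h. Naive cells had 25.7 and 27.3 RPKM, 3 h cells 3.45 and 4.11, 10 h cells 12.5 and 11.2, 33 h cells 14.3 and 9.42, expanded B cells 9.95 and 8.38, and plasmablasts 11.3 and 8.71. Both naive libraries stood above all others and both 3 h libraries below all others, whereas each of the 4 later stages overlapped its neighbour in the order of the means. The fall to 3 h was 6.97-fold (log2 fold change -2.80 ± 0.20 SE, adjusted p = 3.1e-07). The rise to 10 h was 3.12-fold (1.64 ± 0.19, adjusted p = 0.00018), which left plasmablasts 2.65-fold below naive cells (-1.41 ± 0.19, adjusted p = 0.00027). The later steps lay between -0.38 and 0.12 and were not called.

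Irf9, the DNA-binding partner of Stat2, was measured alongside. Naive cells had 68.6 and 62.3 RPKM of it, 3 h cells 18.9 and 29.3, 10 h cells 54.1 and 38.1, 33 h cells 40.2 and 30.2, expanded B cells 11.4 and 9.74, and plasmablasts 17.2 and 15.4. Like Stat2 it fell at 3 h (log2 fold change -1.44 ± 0.22 SE, adjusted p = 0.0011), but its change to 10 h was not called (0.93 ± 0.22, adjusted p = 0.065). Stat2 had its lowest stage mean at 3 h, whereas Irf9 was lower in expanded B cells and plasmablasts. Irf9 fell again from 33 h to expanded B cells (-1.74 ± 0.22, adjusted p = 0.0012), where Stat2 was not called. Plasmablasts held less Irf9 RNA than naive cells (-2.01 ± 0.22, adjusted p = 3.9e-05).

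**Figure D2:**
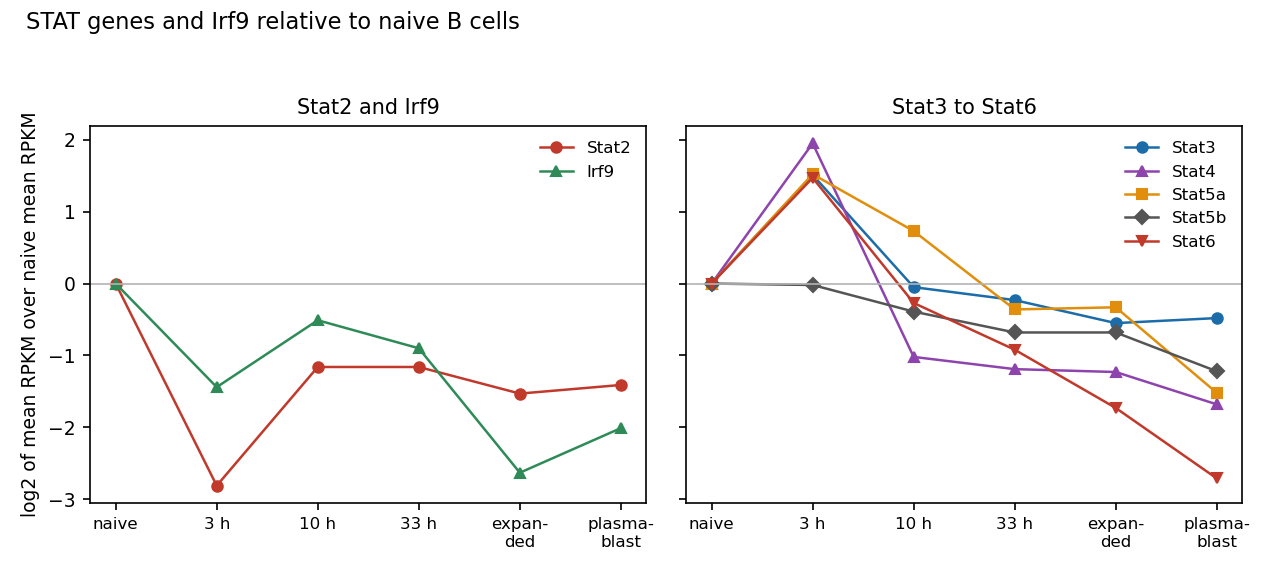
Mean RPKM of Stat2 and Irf9 (left) and of Stat3 to Stat6 (right) at the 6 stages, as the log2 ratio to its naive mean (2 libraries per mean, no error shown). At 3 h, Stat2 and Irf9 lay at -2.81 and -1.44, while Stat3, Stat4, Stat5a and Stat6 lay between 1.47 and 1.95 and Stat5b at -0.02.

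Stat3, Stat5a and Stat6 rose together at 3 h, as did Stat4, which is no member of the set. Stat6 was the STAT with the highest level at 3 h, at 279 and 288 RPKM, against 95.3 and 110 in naive cells (log2 fold change 1.47 ± 0.11 SE, adjusted p = 1.3e-06). It fell to 84.7 and 85 RPKM at 10 h (-1.74 ± 0.11, adjusted p = 5.2e-07). The 33 h libraries had 60.2 and 48.3, expanded B cells 31.7 and 30.3, and plasmablasts 15.1 and 16.2. Its libraries overlapped between no 2 stages, and from 3 h on each stage lay below the one before. The steps from 10 to 33 h (-0.64 ± 0.10, adjusted p = 0.45) and from 33 h to expanded B cells (-0.81 ± 0.11, adjusted p = 0.063) were not called. Each passed without 1 of the 33 h libraries: the former without replicate 1 (-0.81, adjusted p = 0.042), the latter without replicate 2 (-0.96, adjusted p = 0.0045). The step to plasmablasts was called (-0.99 ± 0.11, adjusted p = 0.0016), and plasmablasts held 6.56-fold less Stat6 RNA than naive cells (-2.71 ± 0.11, adjusted p = 6.2e-10). Stat6 made up 45.6% and 48.5% of the summed RPKM of the 5 STATs in naive cells, 56.8% and 59% in 3 h cells, and 19.5% and 20.8% in plasmablasts.

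Stat3, the factor of the interleukin-6 and interleukin-10 receptors, had a peak at a single stage. Naive cells had 50.1 and 52.3 RPKM, 3 h cells 156 and 136, and 10 h cells 51.8 and 47.4. Of the later stages, 33 h cells had 45.6 and 41.5, expanded B cells 34 and 36.1, and plasmablasts 35.7 and 37.6. The 3 h libraries stood far above the rest, naive cells overlapped 10 h cells, and expanded B cells overlapped plasmablasts. The rise to 3 h (2.84-fold, log2 fold change 1.51 ± 0.09 SE, adjusted p = 2.8e-07) and the fall to 10 h (2.93-fold, -1.55 ± 0.09, adjusted p = 6.6e-07) were nearly equal in size. No later step was called, nor was the difference between naive cells and plasmablasts (-0.48 ± 0.09, adjusted p = 0.85). Stat3 was the most abundant STAT of the set in plasmablasts, above Stat6 in both libraries.

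Stat4, best known for interleukin-12 signalling, rose from 30.5 and 28.7 to 125 and 103 RPKM at 3 h (log2 fold change 1.95 ± 0.10 SE, adjusted p = 2.4e-08). It fell to 14.5 and 14.8 at 10 h (-2.96 ± 0.11, adjusted p = 3.2e-09) and was at 9.56 and 8.91 in plasmablasts. Plasmablasts held less Stat4 RNA than naive cells (-1.68 ± 0.10, adjusted p = 1.3e-07). Unlike Stat3, Stat4 was lower at 10 h than in naive cells in both libraries.

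**Figure D3:**
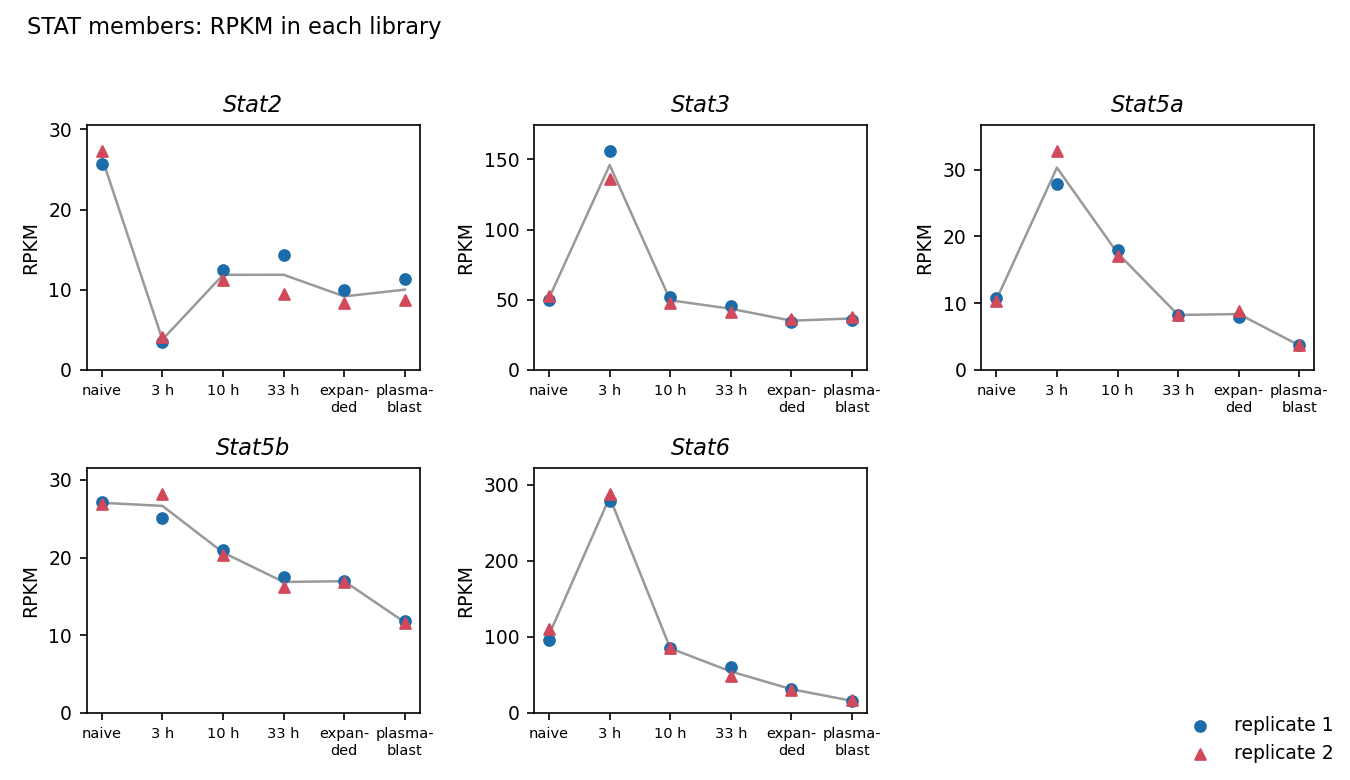
RPKM of the 5 STATs in each library at the 6 stages (circles replicate 1, triangles replicate 2, grey line through the means, each axis from 0). Stat3, Stat5a and Stat6 have their highest libraries at 3 h, Stat2 its lowest, and Stat5b declines from 27.1 RPKM in naive cells to 11.6 in plasmablasts.

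The twin genes Stat5a and Stat5b, whose proteins serve the same receptors, differed in their course. For Stat5a, naive cells had 10.7 and 10.3 RPKM, 3 h cells 27.8 and 32.8, 10 h cells 18 and 17, 33 h cells 8.16 and 8.29, expanded B cells 7.98 and 8.75, and both plasmablast libraries 3.67. For Stat5b, naive cells had 27.2 and 26.9 RPKM, 3 h cells 25.1 and 28.2, 10 h cells 21 and 20.3, 33 h cells 17.5 and 16.2, expanded B cells 17 and 16.9, and plasmablasts 11.8 and 11.5. Stat5a thus peaked at 3 h, whereas Stat5b overlapped between naive cells and 3 h and never rose above its naive level by more than its spread.

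Stat5a rose 2.88-fold to 3 h (log2 fold change 1.53 ± 0.10 SE, adjusted p = 5.5e-07) and fell to 10 h (-0.80 ± 0.10, adjusted p = 0.025). That fall was no longer called without the 3 h replicate 2 (-0.70, adjusted p = 0.1) or the 10 h replicate 2 (-0.75, adjusted p = 0.1). With scaling to library size alone it was -0.47 (adjusted p = 0.95), a setting in which the median of all genes at this step moved by 0.33. Stat5a fell again to 33 h (-1.09 ± 0.10, adjusted p = 0.00038) and to plasmablasts (-1.19 ± 0.11, adjusted p = 7.9e-05). Its step to expanded B cells was 0.02 ± 0.10. Stat5b changed by between -0.54 and 0.01 at each transition and was never called, but the steps added up to a 2.32-fold fall from naive cells to plasmablasts (-1.22 ± 0.09, adjusted p = 2.4e-06), and Stat5a fell 2.87-fold over the same path (-1.52 ± 0.11, adjusted p = 6.2e-07).

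Within a library, the ratio of Stat5b to Stat5a RPKM was 2.53 and 2.6 in naive cells. It was 0.903 and 0.858 in 3 h cells and 1.17 and 1.19 in 10 h cells. In 33 h cells it was 2.14 and 1.95, and in plasmablasts 3.2 and 3.14. Stat5a was therefore the more abundant twin in the 3 h libraries only. The stretches that the twins share, 351 per gene, could move reads from one to the other, and their part in this ratio was not tested.

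Among the inhibitors, Socs3, which blocks receptors of the interleukin-6 type, rose and fell in turn. Naive cells had 2.7 and 2.2 RPKM, 3 h cells 6.24 and 8.05, 10 h cells 3.68 and 3.59, and 33 h cells 9.69 and 8.21. After division, expanded B cells had 1.79 and 1.55, and plasmablasts 1.22 and 1.41. No 2 stages overlapped, and the 33 h libraries were the highest, just above those at 3 h. Socs3 was the only gene of the set called at each of the first 4 transitions. The steps were 1.54 ± 0.17 SE (adjusted p = 4e-05) to 3 h, -0.98 ± 0.16 (adjusted p = 0.014) to 10 h, 1.30 ± 0.16 (adjusted p = 0.00085) to 33 h, and -2.42 ± 0.17 (5.36-fold, adjusted p = 3.1e-06) to expanded B cells, as log2 fold changes.

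Stat3, a known activator of Socs3, shared its high level at 3 h but not that at 33 h, and a link between them was not tested. The fall of Socs3 to 10 h was not called without the 3 h replicate 2 (-0.81, adjusted p = 0.089) or with library size alone (-0.66, adjusted p = 0.31). Plasmablasts were 1.86-fold below naive cells (-0.90 ± 0.19, adjusted p = 0.035). That call was lost without the naive replicate 1 (-0.74, adjusted p = 0.19) or the plasmablast replicate 1 (-0.81, adjusted p = 0.13), and with DESeq2's Wald test (-0.90, adjusted p = 0.29).

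**Figure D4:**
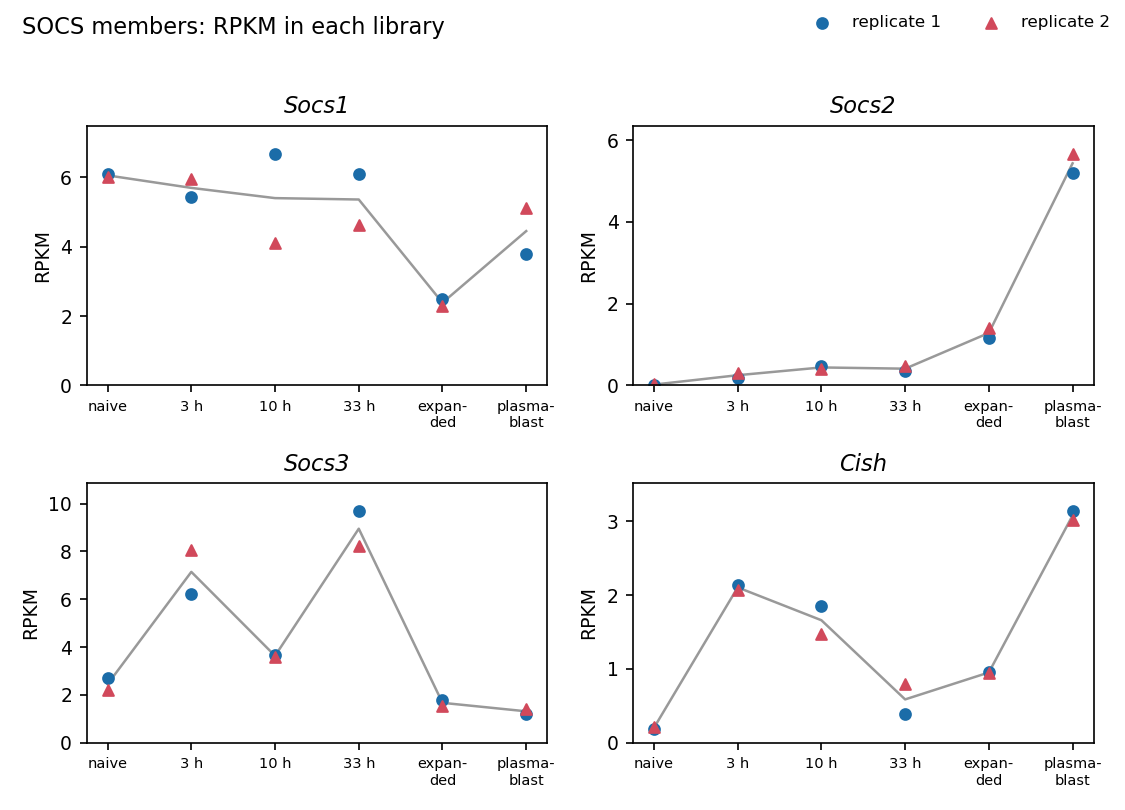
RPKM of the 4 SOCS genes in each library at the 6 stages (circles replicate 1, triangles replicate 2, grey line through the means, each axis from 0). Socs3 has a peak at 3 h and a peak at 33 h, Cish is high at 3 h and in plasmablasts, Socs2 reaches 5.2 and 5.67 in plasmablasts, and Socs1 is lowest in expanded B cells.

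Socs1, a direct inhibitor of Janus kinases, changed least of the 4 SOCS genes before the first division. Naive cells had 6.1 and 6.01 RPKM, 3 h cells 5.44 and 5.95, 10 h cells 6.68 and 4.12, and 33 h cells 6.09 and 4.63. The first 3 steps lay between -0.08 and -0.01 on the log2 scale, with standard errors of 0.22 to 0.23, and the libraries from 3 to 33 h overlapped. Expanded B cells were lowest, at 2.48 and 2.29 RPKM, and plasmablasts were at 3.78 and 5.12. The fall from 33 h to expanded B cells was called (-1.17 ± 0.24 SE, adjusted p = 0.036), while the difference between expanded B cells and plasmablasts was not (0.90 ± 0.25, adjusted p = 0.12). That call was lost without the 33 h replicate 1 (-0.95, adjusted p = 0.29) or either expanded library (-1.24, adjusted p = 0.11, and -1.12, adjusted p = 0.17), with DESeq2's Wald test (-1.15, adjusted p = 0.36), and among genes with at least 10 counts in every library (-1.14, adjusted p = 0.064).

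Cish, the founding member of the family, which dampens Stat5 signals, was nearly silent in naive cells at 0.191 and 0.215 RPKM. Its level was 2.14 and 2.07 in 3 h cells and 1.85 and 1.47 in 10 h cells. Then 33 h cells had 0.383 and 0.792, expanded B cells 0.961 and 0.944, and plasmablasts 3.14 and 3.02. No 2 stages overlapped, and plasmablasts, not cells at 3 h, had the highest level. The rise to 3 h was 10.3-fold (log2 fold change 3.37 ± 0.34 SE, adjusted p = 4.4e-06) and the step to 10 h was not called (-0.34 ± 0.25, adjusted p = 0.95).

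The fall of Cish to 33 h was called (-1.56 ± 0.27 SE on the log2 scale, adjusted p = 0.0051), but not without the 33 h replicate 1 (-1.07, adjusted p = 0.07), the lower of the pair. The step to expanded B cells was not called (0.76 ± 0.29, adjusted p = 0.53), though it was without the 33 h replicate 2 (1.31, adjusted p = 0.025). Plasmablasts held 3.22-fold more than expanded B cells (1.69 ± 0.26, adjusted p = 0.001) and 15.1-fold more than naive cells (3.92 ± 0.33, adjusted p = 4.5e-07). Cish and Stat5a, one of its known activators, both rose at 3 h, but Stat5a had its lowest level in plasmablasts, where Cish had its highest. Stat5b was not called at 3 h and was also lowest in plasmablasts. A link of either twin to Cish was not tested.

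Socs2, which acts on growth hormone and other Stat5-linked receptors, went from next to nothing to the most abundant SOCS gene of the set in plasmablasts. Naive cells held 0 and 3 counts, or 0 and 0.0431 RPKM. After activation, 3 h cells had 0.186 and 0.316, 10 h cells 0.47 and 0.412, 33 h cells 0.345 and 0.476, expanded B cells 1.17 and 1.4, and plasmablasts 5.2 and 5.67. Its libraries at 10 and 33 h overlapped, and otherwise no 2 neighbours in the order did.

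With 3 counts in all, naive cells gave only a loose ratio for Socs2. The 3 h libraries were 14.4 times above them (95% exact interval 4.53 to 73.1) and plasmablasts 293 times (99.8 to 1422), intervals that cover counting error only. The rise to 3 h was called (adjusted p = 0.00085), as was that to plasmablasts over the whole path (adjusted p = 5.5e-09). Between later stages the folds are firmer. Expanded B cells stood 3.18-fold above 33 h cells (log2 fold change 1.67 ± 0.28 SE, adjusted p = 0.0051), a call that was lost without the 33 h replicate 1 (1.43, adjusted p = 0.086). Plasmablasts stood 4.24-fold above expanded B cells (2.08 ± 0.25, adjusted p = 8.9e-05).

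The make-up of the SOCS RNA changed along with its amount. Naive cells had a sum of 9 and 8.46 RPKM over the 4 genes, 3 h cells 14 and 16.4, 10 h cells 12.7 and 9.59, 33 h cells 16.5 and 14.1, expanded B cells 6.4 and 6.18, and plasmablasts 13.3 and 15.2. Socs3 was 58.7% and 58.2% of the sum at 33 h and 9.18% and 9.25% in plasmablasts. Cish and Socs2 together made up 2.13% and 3.05% of it before activation, 4.41% and 8.99% just before the first division, 33.3% and 37.9% among expanded B cells, and 62.5% and 57.1% among plasmablasts. Stages with similar sums, such as 33 h cells and plasmablasts, thus held different SOCS genes.

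**Figure D5:**
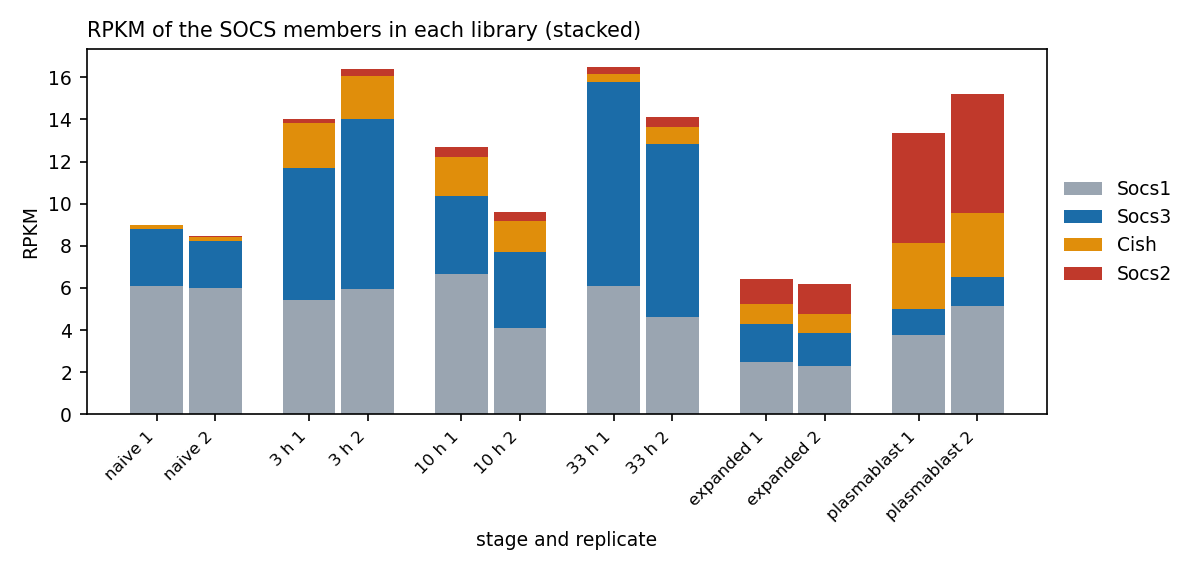
Stacked RPKM of the 4 SOCS genes in each of the 12 libraries. Socs1 and Socs3 fill nearly all of the naive and 33 h bars, while Socs2 and Cish fill 62.5% and 57.1% of the plasmablast bars.

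Of the 4 SOCS genes outside the set, whose roles in cytokine signalling are less well known, Socs5 and Socs6 were called. Socs6 rose at 3 h, from 5.4 and 5.83 to 11.6 and 10.4 RPKM (log2 fold change 0.97 ± 0.11 SE, adjusted p = 0.0011), and fell by 10 h (-0.79 ± 0.11, adjusted p = 0.036). Socs5 fell from 7.52 and 8.54 RPKM at 10 h to 4.29 and 3.14 at 33 h (-1.11 ± 0.17, adjusted p = 0.011) and to 1.04 and 0.82 in expanded B cells (-2.00 ± 0.20, adjusted p = 7.2e-05). It rose to 2.24 and 1.91 in plasmablasts (1.14 ± 0.21, adjusted p = 0.011). Over the whole path Socs5 fell, from 13.6 and 12.6 RPKM in naive cells (-2.67 ± 0.19, adjusted p = 1.4e-07, background 23.4% of all genes). Socs4, between 7.6 and 23.5 RPKM, and Socs7, between 6.57 and 12.7, were called at no transition. At the 5 transitions in order, 21.0%, 17.4%, 10.1%, 6.94% and 13.9% of all genes rose. The shares that fell were 24.3%, 13.4%, 4.45%, 3.66% and 12.2%.

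Other parts of the pathway were followed by lists of genes. Of 19 cytokines that signal through STATs, 9 were expressed well enough to be tested. At 3 h, 4 of the 9 rose (Il10, Lif, Ebi3 and Il6, background 21.0% of all genes) and none fell (background 24.3%). In naive cells Il6, Il10, Lif and Csf2 were at 0 to 0.0357 RPKM, so a fall from there could not have been called. Lif was still low at 3 h, at 0.262 and 0.114 RPKM. The count of Il10, a ligand that activates Stat3, was 0 and 1 in the naive libraries and 222 and 450 at 3 h, a ratio of 828 (95% exact interval 148 to 32763). Il6, the other classical Stat3 ligand, was the only cytokine called from 3 to 10 h, a step at which 17.4% of all genes rose (3.82 ± 0.31 SE, adjusted p = 1.2e-06), and its mean RPKM went from 0.962 to 14.6. Between 10 and 33 h, 2 fell (Lif and Il15, background 4.45%), and at the next step no cytokine was called. From expanded B cells to plasmablasts, 3 rose (background 13.9%) and 2 fell (background 12.2%). Il6 had 405 counts in expanded B cells and 1 in plasmablasts, a ratio of 287 (51.3 to 11372), whereas Il10 was at 13.2 and 30.2 RPKM in the plasmablast libraries, which thus differed more than 1.5-fold. Over the whole path 4 rose (background 26.6%) and 2 fell (background 23.4%). Il10 led with a ratio of 1749 (313 to 69139), to which the plasmablast libraries gave 406 and 1118 counts.

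Of 28 cytokine receptor chains, 25 were tested. At 3 h, 5 rose (background 21.0% of all genes) and 8 fell (background 24.3%). The largest change was that of Il2ra, the inducible chain of the interleukin-2 receptor that uses Stat5. Its mean RPKM went from 0.863 to 150 (log2 fold change 7.44 ± 0.14 SE, adjusted p = 1.1e-12). Il2rb, another chain of that receptor, was among those that fell, from 1.87 to 0.249 mean RPKM (-2.85 ± 0.46, adjusted p = 0.00038). A further chain, Il2rg, was not tested because it was removed with the X and Y genes. Its level was 268 and 286 RPKM in naive cells and 642 and 577 at 3 h. It was 132 and 131 at 10 h and 389 and 410 in plasmablasts. By 10 h, 3 chains had risen (background 17.4%) and 10 had fallen (background 13.4%), Il2ra again with the largest change (-2.65 ± 0.10, adjusted p = 5.8e-09). By 33 h, 2 rose (background 10.1%) and 5 fell (background 4.45%), and Il12rb2 led (-2.79 ± 0.57, adjusted p = 0.0062). From 33 h to expanded B cells, 6 rose (background 6.94%) and 2 fell (background 3.66%), and Lifr led (3.19 ± 0.53, adjusted p = 0.0019). Both leaders were at very low levels. Il12rb2 went from 0.156 to 0.0195 mean RPKM and Lifr from 0.0086 to 0.0879. At the step to plasmablasts, 7 rose (background 13.9%) and 6 fell (background 12.2%), with Il9r in front (-3.78 ± 0.28, adjusted p = 4.9e-07). Il4ra, the chain that recruits Stat6, was among those that fell from 3 to 10 h (-1.86 ± 0.14, adjusted p = 2.5e-06). It also fell at the step to plasmablasts (-1.40 ± 0.14, adjusted p = 8e-05), and Stat6 was called downward at both steps. From naive cells to 3 h, where Stat6 rose, Il4ra was not called (-0.01 ± 0.14). Over the whole path 7 rose (background 26.6%) and 10 fell (background 23.4%), and Il7r, with 38 counts in naive cells and 0 in plasmablasts, was at least 11-fold lower (floor of 3 counts over the group).

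The Janus kinases did not move as a group. At 3 h, 21.0% of all genes rose and 24.3% fell, by 10 h 17.4% and 13.4%, and by 33 h 10.1% and 4.45%. Jak2 rose at 3 h, from 26.5 and 26.2 to 52.7 and 51 RPKM (log2 fold change 0.98 ± 0.10 SE, adjusted p = 0.00045). Jak3, the kinase of the common gamma chain receptors, fell from 41.5 and 39 to 9.58 and 12.8 RPKM (-1.84 ± 0.17, adjusted p = 6.4e-06). By 10 h Jak2 had fallen (-1.97 ± 0.10, adjusted p = 7e-08), and so had Jak1, from 281 and 235 to 86.4 and 93.4 RPKM (-1.52 ± 0.11, adjusted p = 2.3e-06). At 33 h Jak3 had risen to 58 and 45.8 RPKM (1.65 ± 0.16, adjusted p = 7.9e-05) and Jak2 had fallen further (-0.79 ± 0.10, adjusted p = 0.045). None of the 4 was called at the step to expanded B cells, where 6.94% of all genes rose and 3.66% fell. Jak2 alone rose in plasmablasts (0.89 ± 0.10, adjusted p = 0.0046, background 13.9%), and none fell (background 12.2%). Tyk2, the kinase of the type I interferon receptor, was between 7.5 and 39.5 RPKM and was called nowhere. Jak1 was the only kinase called between naive cells and plasmablasts (-2.10 ± 0.11, adjusted p = 9.2e-09), where 26.6% of all genes rose and 23.4% fell.

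The 4 subunits with which SOCS proteins build a ubiquitin ligase were called upward or not at all, a small list in which few calls are to be had. Eloc (0.78 ± 0.11 SE on the log2 scale, adjusted p = 0.032) and Cul5 (0.86 ± 0.10, adjusted p = 0.0064) rose at 3 h, where 21.0% of all genes rose and 24.3% fell. Elob rose from 3 to 10 h, from 139 and 134 to 251 and 244 RPKM (0.86 ± 0.08, adjusted p = 0.0026), where 17.4% of all genes rose and 13.4% fell. No subunit was called at the later transitions. Between naive cells and plasmablasts, Elob (1.15 ± 0.08, adjusted p = 4e-06), Eloc (0.76 ± 0.11, adjusted p = 0.041) and Rnf7 (1.17 ± 0.11, adjusted p = 5.9e-05) rose, while Cul5 differed by 0.09 ± 0.11. Over that path 26.6% of all genes rose and 23.4% fell.

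Of 9 other inhibitors of the pathway, phosphatases, PIAS proteins and the adaptor Sh2b3, 2 rose (background 21.0% of all genes) and 2 fell (background 24.3%) at 3 h, shares near those of all genes. Ptpn2, a phosphatase of Janus kinases and STATs, changed most (1.15 ± 0.10 SE on the log2 scale, adjusted p = 2.9e-05). By 10 h, 2 fell (background 13.4%), led by Sh2b3 (-1.74 ± 0.13, adjusted p = 2e-06), and none was called from 10 to 33 h. At the last steps 1 (background 3.66%) and 3 (background 12.2%) fell and none rose. Ptpn6, a phosphatase that restrains B cell signalling, fell at both, and its mean RPKM went from 482 in naive cells to 53.8 in plasmablasts (-3.16 ± 0.11, adjusted p = 1.5e-10). Over the whole path 3 of the 9 fell (background 23.4%), and none rose (background 26.6%).

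Of 12 genes that STATs are known to induce, 11 were tested, and 7 rose (background 21.0% of all genes) and 2 fell (background 24.3%) at 3 h. Bcl2l1, a survival gene, led the rise, from 3.29 to 396 mean RPKM (log2 fold change 6.91 ± 0.21 SE, adjusted p = 2.4e-10). By 10 h, 2 had risen (background 17.4%) and 7 fallen (background 13.4%), again led by Bcl2l1 (-3.07 ± 0.17, adjusted p = 9.5e-08). From 10 to 33 h 2 fell (background 4.45%), and from 33 h to expanded B cells 3 fell (background 3.66%), none rose at either step, and Bcl6 led both (-1.14 ± 0.15, adjusted p = 0.0028, and -2.31 ± 0.16, adjusted p = 3.8e-06). At the step to plasmablasts 2 rose (background 13.9%) and 5 fell (background 12.2%). Fcer2a, the low-affinity IgE receptor that interleukin-4 induces through Stat6, fell most there (-3.27 ± 0.23, adjusted p = 8.9e-07). Its mean RPKM was 790 in naive cells and 2.15 in plasmablasts (-8.53 ± 0.26, adjusted p = 1.7e-10), and over that path 4 of the 11 rose (background 26.6%) and 4 fell (background 23.4%). These genes also answer to factors other than STATs.

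As a description, the genes whose log2 RPKM ran closest to each member over the 12 libraries were sought among 8612 or 8613 genes, the points sharing libraries and stages. Stat6 ran with Smg6 (Pearson r = 0.996) and Cxcr5 (0.991), a homing receptor of follicular B cells. Stat3 ran with Nr4a1 (0.991), an early response gene of the antigen receptor, and B3gnt2 (0.988), and Stat5a with Faim (0.987) and Prkaa1 (0.985). Stat2 was closest to Rtl6 (0.988) and Calhm2 (0.982), and Stat5b to Cdyl2 (0.982) and Il9r (0.979). Socs2 ran with Srp19 (0.984), a part of the particle that guides secreted proteins to the endoplasmic reticulum, and Uchl1 (0.983). Cish ran with Ppp2cb (0.971) and Med29 (0.962), and Socs3 with Ttl (0.968) and Pias2 (0.942). Socs1 had the weakest partners, Ifi47 (0.904) and Adar (0.901), both known as interferon-induced genes. Over the 6 stage means, Stat6 tracked Stat5a (0.941) and Stat5b (0.922), while Stat5b ran opposite to Socs2 (-0.902).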

How the data were processed

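Per the study's methods, libraries were made with a TruSeq kit and sequenced in pairs, the authors used Rsubread for alignment (mm10), and featureCounts assigned reads to the Entrez genes built into that package. The deposited values are raw counts with no normalization or filter, and the deposited exon lengths are in bases. The submitters' processing notes also name CASAVA 1.8.2. Symbols and coordinates came from RefSeq (25275 of 27179 IDs matched).

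After the study's methods, mitochondrial, ribosomal RNA, X and Y, variable immunoglobulin and unmatched genes were removed (23700 left) and filterByExpr kept 12750. All 12 libraries entered a one-way layout in edgeR 4.0.16 (R 4.3.3) with TMM scaling (factors 0.839 to 1.12), robust quasi-likelihood dispersions, and glmTreat against 1.5-fold, adjusted with Benjamini-Hochberg at 0.05. RPKM were computed from the deposited counts, lengths and TMM-scaled totals. A standard error is the log2 fold change over the root of its F statistic. A count of 0 allows up to 3 counts, or 0.0495 to 0.13 CPM, and such limits cover counting error only. The fit was tested on simulated data.

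The members, lists and tests were chosen with earlier results of these data known. All 9 members are named at every stage. Some listed genes are not reported here. Of each list, the called gene with the largest change is named, and lists of at most 5 genes are given in full. The 2 genes most like each member were taken from genes at or above 3 in average log2 CPM. Il6, Il10, Il2rb, Il2rg, Il4ra, Ptpn6 and Fcer2a were also named after their values were seen. Alternatives were DESeq2 1.42.0 size factors or its Wald test, library size alone, an F-test without threshold, other filters and dispersions, a replicate block, fits to 4 libraries, all gene classes kept, and leaving out each library.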

Additional observations from a re-analysis of the deposited data

How the results depend on the processing

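Of the 6 comparisons, naive to 3 h, expanded to plasmablast and naive to plasmablast kept their number of called members within 1.5 times under every alternative run. From 3 to 10 h, 5 members were called, 3 with library size alone (Socs3 and Stat5a lost) and 3 to 5 when a library was left out. At the step from 10 to 33 h, 3 were called, and 5 by the F-test without a fold threshold (Stat5b and Stat6 gained). From 33 h to expanded B cells, 3 were called, 5 by the F-test (Stat3 and Stat6 gained), 1 with at least 10 counts in every library (Socs1 lost, Socs2 no longer tested), and 1 to 5 when a library was left out (1 without the 33 h replicate 1, 5 without the 33 h replicate 2). Leaving out a library leaves a stage with a lone sample that is assumed to vary like the others. Calls over all genes moved as well. Of 12750 genes, the F-test called 5798 from 10 to 33 h, against 1855 in the main fit. From 33 h to expanded B cells it called 5053, against 1352. With at least 10 counts in every library, 712 of 9963 genes were called at that step. Library size alone called 4436 from 3 to 10 h, against 3932. For single members, 746 alternatives kept direction and call, 18 lost a call, 16 gained one and 24 changed the sign of a value that was not called. The F-test also called Stat5b from 3 to 10 h (-0.37, adjusted p = 0.002), Stat5b (-0.54, adjusted p = 0.00013) and Socs1 (0.90, adjusted p = 0.0072) at the step to plasmablasts, and Stat3 over the whole path (-0.48, adjusted p = 0.00034). Among the other changes, Cish from 10 to 33 h was not called by DESeq2's Wald test (-1.50, adjusted p = 0.05), and Stat5b at the step to plasmablasts was called with library size alone (-0.88, adjusted p = 0.0039), as was Stat3 over the whole path (-0.77, adjusted p = 0.014). The fall of Stat5a to 10 h was not called without a filter (-0.78, adjusted p = 0.065) or with 4 libraries (-0.80, adjusted p = 0.076), and the rise of Socs1 in plasmablasts was called with 4 libraries (0.93, adjusted p = 0.04). Stat6 at the step to expanded B cells was called with no filter (-0.84, adjusted p = 0.013) and with the removed genes kept (-0.82, adjusted p = 0.048). The causes were not tested.

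The sign changes were all in uncalled values, as log2 fold changes. With library size alone they were 0.25 for Socs1 (3 to 10 h), -0.053 for Stat2 (10 to 33 h), and -0.21 for Stat2 and -0.28 for Stat3 (expanded to plasmablast). That scaling moved the median of all genes by -0.21, 0.33, -0.06, -0.01 and -0.34 at the 5 transitions and by -0.28 over the whole path. At that step from 10 h, Stat2 was -0.0234 with the removed genes kept, and Socs1 was 0.0224 with DESeq2's size factors, 0.022 by its Wald test, 0.0253 with no filter, 0.0032 with at least 10 counts and 0.0169 with 4 libraries. From 33 h to expanded B cells, Stat5a was -0.014 and Stat5b -0.0282 with no filter, and Stat5b was -0.0061 with the removed genes kept. With a library left out, the ranges were -0.1435 to 0.0581 for Stat5b (naive to 3 h), -0.47 to 0.23 for Socs1 (3 to 10 h), and -0.33 to 0.27 for Stat2, -0.31 to 0.39 for Socs1 and -0.36 to 0.10 for Socs2 (10 to 33 h). They were -0.0434 to 0.0882 for Stat5a and -0.0463 to 0.0679 for Stat5b (33 h to expanded) and -0.0477 to 0.33 for Stat2 (expanded to plasmablast).

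No pairing of the samples by replicate number was seen: the correlation of same-numbered deviations lay between -0.139 and 0.0841 over 15 pairs of stages. With 2 replicates per stage, this cannot show that samples were unpaired. The highest value was that of expanded B cells and plasmablasts, both harvested on day 4. With a replicate block, 7, 5, 3, 3, 4 and 7 members were called in the 6 comparisons, the same counts as without it, and no call changed. Stat2 from 10 to 33 h was -0.0104 with the replicate block.

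With 2 replicates per stage, an uncalled change is not shown to be absent. Levels of Socs2 in naive cells rest on 3 counts.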
